A study of Mus musculus with 9 samples.

Results

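Transforming growth factor beta (TGF-β) receptors and the SMAD pathway were followed in mouse CD4+ T cells through 10 genes. They were the ligand Tgfb1, the receptors Tgfbr1 and Tgfbr2, the signal transducers Smad2, Smad3 and Smad4, and the inhibitors and feedback genes Smad7, Skil, Ski and Pmepa1. The genes were found by symbol among the 39253 rows of the deposited count table. All 10 were present, and all 10 passed the low-count filter in each fit. RNA was sequenced from CD4+ T cells of mice with experimental autoimmune encephalomyelitis (EAE), in which induced autoimmunity damages the central nervous system, on day 9. One group was labelled wildtype (4 libraries) and the other ERα KO, a knockout of estrogen receptor alpha (5 libraries). Batch 1 held wildtype replicates 1 and 2 and knockout replicates 1, 2 and 3, and batch 2 held wildtype replicates 3 and 4 and knockout replicates 4 and 5. EAE, day 9 and the CD4+ T cell source were shared by every library. The title of the series speaks of ERα in dendritic cells, and the labels do not give the cells that lack ERα, the strain, the age or the sex of the mice, or whether animals were pooled.

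TGF-β is secreted bound to a latency peptide and is freed by proteases and by integrins. The active ligand binds TGFBR2, which recruits and phosphorylates TGFBR1, and TGFBR1 phosphorylates SMAD2 and SMAD3, which enter the nucleus with SMAD4. In CD4+ T cells the pathway restrains activation, is needed for induced regulatory T cells, and takes part in the differentiation of T helper 17 cells, which have a role in EAE.

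Sequencing depth differed between the batches, with 4926347 to 11296593 counts per library in batch 1 and 45013017 to 69844721 in batch 2. Esr1, the gene of ERα, had 101 and 76 counts for wildtype in batch 2 against 9 and 14 for knockout, a log2 fold change of -2.96 ± 0.70 (SE) with an edgeR adjusted p of 0.618. Counts in batch 1 were 55 and 80 for wildtype against 72, 55 and 66 for the libraries labelled knockout, so Esr1 did not separate the labels there, and every direction given for batch 1 rests on the labels alone. The female-specific transcript Xist and the Y-linked gene Ddx3y gave a male pattern in knockout replicate 3 and in all batch 2 libraries, and a female pattern in the other batch 1 libraries. Knockout replicate 3 also held 30.4 CPM of Xist, beside 55.4 CPM of Ddx3y, while the batch 2 libraries held 0 to 0.289 CPM of Xist. Sex and batch therefore largely coincide and cannot be told apart. Sensory receptor genes, which T cells are not known to use, held 0.0574% to 0.255% of the counts in batch 1 and 0.00258% to 0.0037% in batch 2. Their mean was highest in knockout replicate 3, at 1.69 CPM (counts scaled to a common library total). The 99th percentile of these receptor genes ran from 2.2 to 7.89 CPM in batch 1 and from 0.0536 to 0.222 CPM in batch 2. Esr1 stood at 4.87 to 16.2 CPM in batch 1, above the 1.45 and 1.69 CPM of wildtype in batch 2. The source of the batch 1 Esr1 counts was not tested. The lowest value of any of the 10 pathway genes in any library was 17.2 CPM. CD4+ T cell markers (Cd3d, Cd3e, Cd3g, Cd4, Cd28, Lat, Lck and Cd5) were present in every library, with summed levels of 3245 to 4714 CPM. In bulk RNA, fewer cells of a type and less RNA per cell cannot be told apart.

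The comparison asked whether these genes differ between the genotypes within each batch. None of the 10 passed an adjusted p of 0.05 in edgeR's quasi-likelihood test, in batch 1, in batch 2 or over both batches. Over all genes, that threshold was passed by 0.126% of 24600 genes in batch 1, by 0% of 15910 genes in batch 2 and by 0.00451% of 22197 genes over both batches. In batch 2 DESeq2 called 329 genes where edgeR called 0. At an unadjusted p under 0.05, 0 of the 10 were called in batch 1 (1.97% of all genes), 1 in batch 2 (7.77%) and 0 over both batches (2.36%). These counts varied with the processing. Upper-quartile scaling gave 1 in batch 1 and 3 in batch 2, leaving out wildtype replicate 3 gave 2 and wildtype replicate 4 gave 5 in batch 2, and limma-voom gave 1 over both batches. The 1 gene in batch 2 was Pmepa1. At the adjusted threshold it was the only one of the 10 called under any alternative run, with an adjusted p of 0.00659 in DESeq2.

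**Figure D1:**
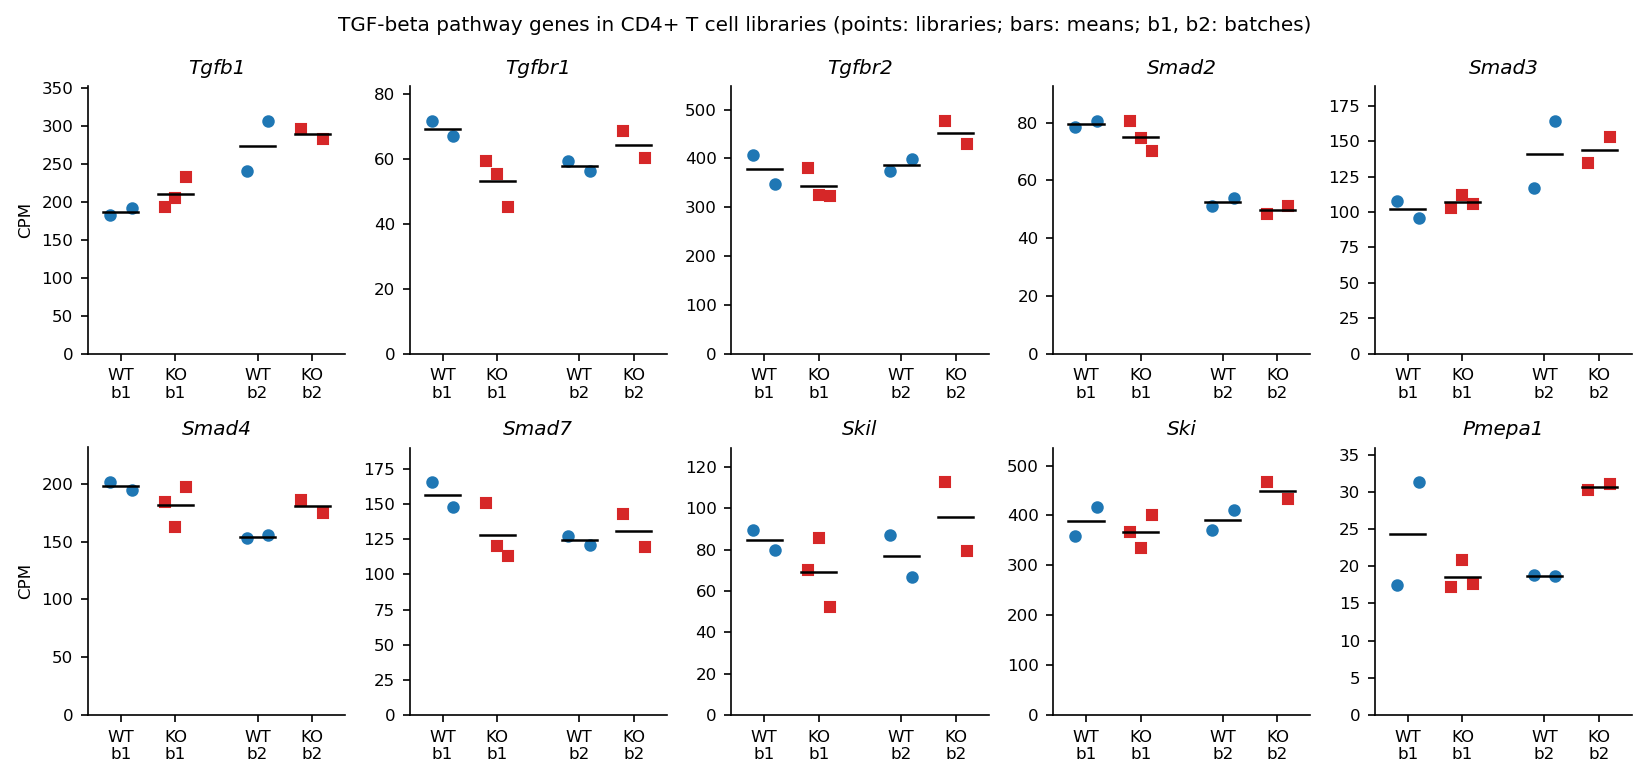
Level of each of the 10 genes in CPM (vertical axis, from 0) in every library. Blue circles are wildtype (WT) and red squares are labelled knockout (KO), b1 and b2 are the batches, and black bars are group means. Pmepa1 in batch 2 lies at 18.7 and 18.8 CPM in wildtype and at 30.3 and 31.1 CPM in knockout, while Smad3 and Smad7 overlap between the groups in both batches.

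Tgfb1 encodes TGF-β1, the main isoform made by lymphocytes. Its level in batch 1 was 182 and 191 CPM in the wildtype libraries and 193, 204 and 233 CPM in the libraries labelled knockout. The wildtype libraries of batch 2 had 240 and 307 CPM, against 296 and 283 CPM for knockout. The batch 1 groups did not overlap and the knockout side was higher, which held for 10.9% of all genes there, and the batch 2 groups overlapped. After TMM scaling the batch 1 difference was 0.02 ± 0.36 (log2 fold change ± SE) and the batch 2 difference was 0.09 ± 0.12. The batch 1 sign depended on the scaling, with a log2 fold change of -0.11 under DESeq2's size factors.

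Of the 13 listed ligands, latency proteins and activators, 13 were tested in batch 1 and 11 in batch 2, and 0 passed the adjusted threshold in either direction. Their median log2 fold change was 0.27 in batch 1 and 0.00 in batch 2, against 0.04 and -0.02 over all genes. Itgb8, the integrin subunit that activates latent TGF-β, was higher in every knockout library than in every wildtype library of its batch. Its level was 7.06 ± 1.22 CPM (SD, n = 2) for wildtype against 13.7 ± 3.06 CPM (SD, n = 3) for the labelled knockout of batch 1, and 6.00 ± 1.63 and 9.61 ± 2.07 CPM (SD, n = 2 each) in batch 2. The batch 1 levels rest on 39 to 146 counts per library and are low. For comparison, the 99th percentile of the sensory receptor genes reached 7.89 CPM there, in knockout replicate 3, where Itgb8 stood at 13.8 CPM. Separation with the knockout higher in both batches occurred in 2% of 15288 genes tested in both. For Itgb8 the log2 fold change across both batches was 0.81 ± 0.24 (SE), with an unadjusted p of 0.00572 and an adjusted p of 1 in edgeR. Its partner subunit Itgav overlapped between the groups in both batches, with log2 fold changes of -0.15 ± 0.36 and 0.07 ± 0.14.

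Lrrc32, which encodes GARP, the surface anchor of latent TGF-β on activated regulatory T cells, had 37.5 ± 1.29 CPM in wildtype and 57.3 ± 6.63 CPM in knockout in batch 2 (SD, n = 2 each). The log2 fold change was 0.61 ± 0.14 (SE), with an unadjusted p of 0.00544 and an adjusted p of 0.618 in edgeR. In batch 1 Lrrc32 was -0.21 ± 0.37. Furin, a protease that cleaves the TGF-β precursor, was lower in knockout in batch 2, at 164.6 ± 29.1 against 350.4 ± 178 CPM (SD, n = 2 each). Its log2 fold change there was -1.07 ± 0.39 with an adjusted p of 0.64 in edgeR, and the 2 wildtype libraries differed widely, at 225 and 476 CPM. Regulatory T cell markers summed to 588 to 779.6 CPM for wildtype and 729.6 to 855 CPM for knockout in batch 2, and Foxp3 alone had a log2 fold change of 0.35 ± 0.15 there. Their part in the Lrrc32 values was not tested, and Lrrc32 is itself in that list.

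The receptors were examined next. The promoter stretches of both genes are shown because the receptor genes can be read for SMAD elements (CAGAC) and estrogen response half-sites (GGTCA) beside their levels. Each is the 250 bases before a RefSeq start site in assembly GRCm38.p6, with CAGAC in capitals. The first is the upstream start of Tgfbr1 (chr4:47352972-47353221, plus strand), and the second is Tgfbr2 (chr9:116175364-116175613, minus strand).
Tgfbr1: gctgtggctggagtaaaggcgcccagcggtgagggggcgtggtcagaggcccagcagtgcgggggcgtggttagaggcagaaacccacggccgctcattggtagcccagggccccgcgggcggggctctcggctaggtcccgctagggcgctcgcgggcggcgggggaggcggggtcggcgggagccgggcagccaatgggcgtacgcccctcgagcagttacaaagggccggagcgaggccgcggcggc
Tgfbr2: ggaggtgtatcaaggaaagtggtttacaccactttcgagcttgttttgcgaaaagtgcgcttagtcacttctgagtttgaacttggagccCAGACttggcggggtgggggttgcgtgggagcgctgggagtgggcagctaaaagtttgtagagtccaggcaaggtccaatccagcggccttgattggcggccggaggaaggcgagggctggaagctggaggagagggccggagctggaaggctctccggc
Tgfbr2 had 1 CAGAC, at position -160 from the start site, and no GGTCA. The Tgfbr1 stretch had no CAGAC and 1 GGTCA, at -210, and a second RefSeq start of Tgfbr1 had 1 CAGAC at -203 and 1 GGTCA at -121. Both strands were searched, and CAGAC occurred in 42.2% and GGTCA in 35.2% of 32851 promoters of the same length. The palindromic SMAD element GTCTAGAC (0.167% of promoters) did not occur in the 6 windows searched, which cover 5 of the 10 genes. Nor did the full estrogen response element (0.0639%), an inverted repeat of the half-site. The other windows searched were those of Tgfb1, Smad3 and Ski. Windows on the chromosome that holds Smad2, Smad4 and Smad7 were left out of the search, and none was searched for Skil or Pmepa1. These absences therefore say nothing about those genes.

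Tgfbr1, the receptor kinase that phosphorylates SMAD2 and SMAD3, had 71.7 and 67.0 CPM in the wildtype libraries of batch 1 and 59.2, 55.4 and 45.2 CPM in those labelled knockout. Batch 2 gave 59.2 and 56.1 CPM for wildtype, against 68.6 and 60.2 CPM for knockout. The groups did not overlap in either batch and lay in opposite directions, with the labelled knockout lower in batch 1 and the knockout higher in batch 2. Non-overlapping groups with the knockout lower in batch 1 were found for 5.19% of genes, with the knockout higher in batch 2 for 19.6%, and with both for 2.3% of 15288 genes. The log2 fold change was -0.51 ± 0.36 (SE) in batch 1 and 0.16 ± 0.13 in batch 2. Their difference, tested as the interaction of batch and genotype, was 0.57 ± 0.26 with an unadjusted p of 0.0486 and an adjusted p of 0.591 in edgeR. At the adjusted threshold 0.00451% of 22197 genes passed that interaction test, and at the unadjusted one 8.36%. Scaled to the CD4+ T cell markers, the interaction of Tgfbr1 was 0.25, with an unadjusted p of 0.247. It was 0.44 without knockout replicate 3.

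Tgfbr2, the ligand-binding receptor, had 407 and 348 CPM in the wildtype libraries of batch 1 and 381, 326 and 323 CPM in those labelled knockout. Levels in batch 2 were 374 and 398 CPM for wildtype, against 477 and 429 CPM for knockout. The batch 1 groups overlapped, and both batch 2 knockout libraries lay above both wildtype libraries, as for 19.6% of all genes. The log2 fold change was -0.28 ± 0.37 in batch 1 and 0.24 ± 0.10 in batch 2, where the unadjusted p was 0.0584 and the 95% confidence interval ran from -0.01 to 0.48. Within a library, counts of Tgfbr1 were 0.14 to 0.193 of those of Tgfbr2. In batch 1 this ratio was 0.176 and 0.193 in wildtype and 0.155, 0.17 and 0.14 in the labelled knockout. These groups did not overlap, but the gap between 0.17 and 0.176 was narrow. The share of other gene pairs that separate so was not computed. The ratio partly restates the Tgfbr1 counts and is no separate evidence. In batch 2 the groups overlapped, with means of 0.15 and 0.142. Whether the counts carry a correction for transcript length is not stated in the labels, so the ratio is read only across libraries.

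Of 11 other receptors of the superfamily, 0 passed the adjusted threshold in any fit, and 9 of 10 tested in batch 2 had positive log2 fold changes, with a median of 0.38. In batch 1, 5 of 11 were positive, with a median of -0.05. Acvr1b, an activin receptor kinase that also phosphorylates SMAD2 and SMAD3, was higher in every knockout library of both batches, as for 2% of genes. Its means were 35.1 ± 6.00 CPM for wildtype (SD, n = 2) and 45.6 ± 2.60 CPM for the labelled knockout (SD, n = 3) in batch 1, and 28.1 ± 6.52 and 39.3 ± 2.76 CPM (SD, n = 2 each) in batch 2. The log2 fold change over both batches was 0.40 ± 0.14, with an unadjusted p of 0.0148 and an adjusted p of 1 in edgeR. Tgfbr3, the co-receptor betaglycan, was 0.44 ± 0.17 in batch 2 (unadjusted p 0.0466, adjusted p 0.638) and -0.19 ± 0.36 in batch 1.

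Smad2, the first of the receptor-activated SMADs, had 78.5 and 80.6 CPM in the wildtype libraries of batch 1 and 80.5, 74.6 and 70.2 CPM in those labelled knockout. The wildtype libraries of batch 2 had 51.3 and 54.0 CPM, against 48.4 and 51.2 CPM for knockout. Smad2 was the only one of the 10 genes whose batch 2 knockout libraries both lay below the wildtype ones, as for 20.5% of all genes, and the gap between the groups was narrow. Its log2 fold changes were -0.22 ± 0.36 and -0.07 ± 0.11. All 5 batch 1 libraries lay above all 4 batch 2 libraries, and the share of all genes that separate the batches was not computed. Smad2 was also the steadiest of the 10 within groups, with a pooled SD of 0.0718 on the log2 CPM scale, and 1.98% of 9454 genes had a lower one.

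Smad3 encodes a SMAD that binds the CAGAC element directly. It had 108 and 95.8 CPM in the wildtype libraries of batch 1 and 103, 112 and 106 CPM in those labelled knockout. Batch 2 gave 117 and 164 CPM for wildtype, against 135 and 153 CPM for knockout. The groups overlapped in both batches, and the knockout libraries lay within the wildtype range in batch 2. The log2 fold changes were -0.08 ± 0.37 and 0.04 ± 0.16, and the batch 2 interval ran from -0.37 to 0.45. The count ratio of Smad2 to Smad3 within a library ran from 0.663 to 0.841 in batch 1 and from 0.329 to 0.438 in batch 2. That ratio separated the batches without overlap but not the genotypes, and the batches also differ in depth and sex pattern. The share of other gene pairs that separate the batches was not computed.

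Smad4, the common partner of both, had 201 and 194 CPM in the wildtype libraries of batch 1 and 184, 162 and 197.5 CPM in those labelled knockout. Levels in batch 2 were 153 and 155 CPM for wildtype, against 186 and 175 CPM for knockout. The batch 1 groups overlapped through knockout replicate 3, and the batch 2 knockout libraries were both higher, as for 19.6% of all genes. The log2 fold change was -0.28 ± 0.36 in batch 1 and 0.23 ± 0.10 in batch 2, with an unadjusted p of 0.0578. Smad2, Smad4 and Smad7 lie on the same chromosome in the RefSeq table of assembly GRCm38, with 2 protein-coding genes between Smad2 and Smad7 and 14 between Smad4 and Smad7.

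Of 11 other SMADs, partners and nuclear cofactors, 11 were tested in batch 1 and 8 in batch 2, and 0 passed the adjusted threshold. Their median log2 fold change was -0.05 in batch 1 and 0.19 in batch 2. Trim33 is a ubiquitin ligase that binds SMAD2 and SMAD3 and competes with or modifies SMAD4. It was lower in the labelled knockout of batch 1 and higher in batch 2, without overlap, as for 2.3% of genes. It had 157 ± 9.80 CPM (SD, n = 2) for wildtype against 125 ± 10.4 CPM (SD, n = 3) for the labelled knockout of batch 1, and 120.1 ± 3.27 and 146 ± 3.64 CPM (SD, n = 2 each) in batch 2. The interaction was 0.64 ± 0.22, with an unadjusted p of 0.0143 and an adjusted p of 0.541 in edgeR. Tgif1, a corepressor of SMAD2, overlapped between the groups of both batches and had log2 fold changes of -0.05 ± 0.37 and -0.27 ± 0.23.

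**Figure D2:**
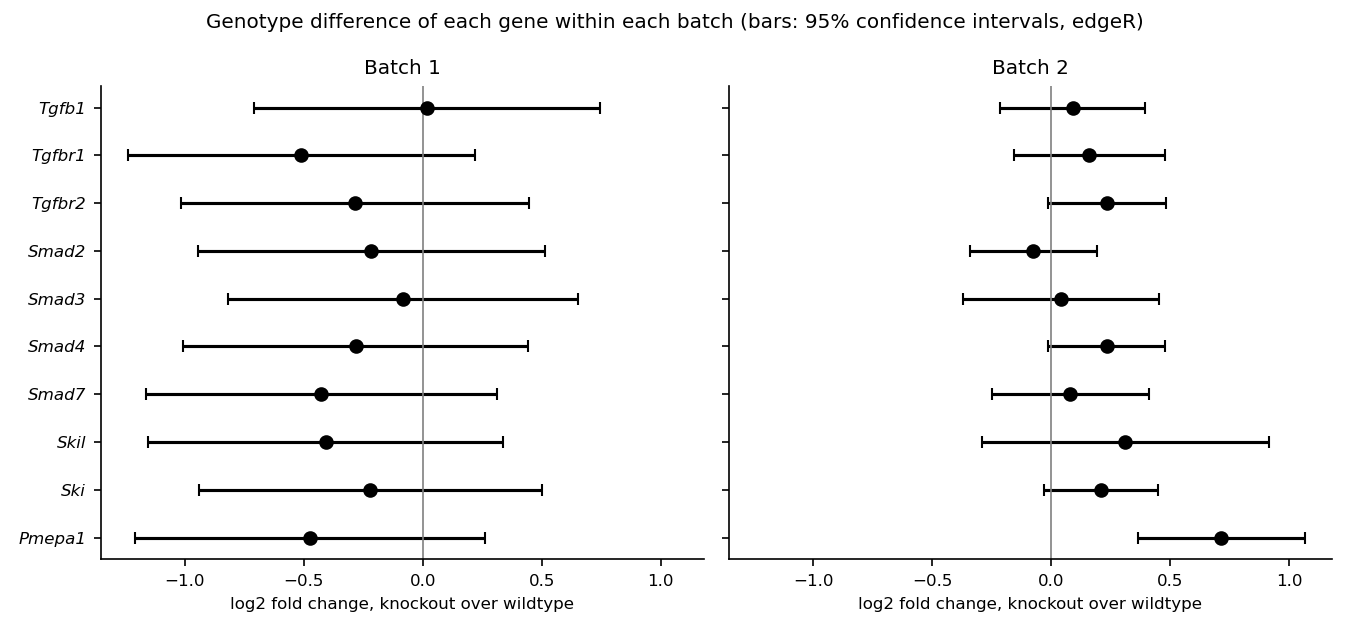
Log2 fold change of knockout over wildtype (horizontal axis) for each of the 10 genes in batch 1 (left) and batch 2 (right), from edgeR, with 95% confidence intervals as bars. Every batch 1 interval includes 0, and in batch 2 only the interval of Pmepa1, 0.36 to 1.07, lies above it.

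Smad7, the inhibitory SMAD that brings ubiquitin ligases to the receptor, had 165 and 148 CPM in the wildtype libraries of batch 1 and 151, 120.5 and 113 CPM in those labelled knockout. The wildtype libraries of batch 2 had 127 and 121 CPM, against 143 and 119.6 CPM for knockout. The groups overlapped in both batches, in batch 1 only through knockout replicate 1. The log2 fold changes were -0.43 ± 0.37 and 0.08 ± 0.13. The ratio of Smad7 to Smad3 counts was 1.53 and 1.54 in the wildtype libraries of batch 1 and 1.47, 1.07 and 1.07 in those labelled knockout. The gap between 1.47 and 1.53 was narrow, and the share of other gene pairs that separate so was not computed. In batch 2 the ratios of the groups overlapped.

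Ski, a corepressor that binds SMAD complexes on DNA, had 359.6 and 416 CPM in the wildtype libraries of batch 1 and 366, 335 and 402 CPM in those labelled knockout. Batch 2 gave 370.0 and 412 CPM for wildtype, against 466.2 and 433 CPM for knockout. The groups overlapped in batch 1 and did not in batch 2, where the knockout was higher, as for 19.6% of all genes. The batch 2 log2 fold change was 0.21 ± 0.10 with an unadjusted p of 0.0767 in edgeR. In batch 1 it was -0.22 ± 0.36.

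Skil, which encodes the related corepressor SnoN and is a known target of the pathway, had 89.5 and 79.8 CPM in the wildtype libraries of batch 1 and 70.2, 85.6 and 52.3 CPM in those labelled knockout. Levels in batch 2 were 87.3 and 66.8 CPM for wildtype, against 112 and 79.1 CPM for knockout. The groups overlapped in both batches, and the log2 fold changes were -0.41 ± 0.37 and 0.31 ± 0.24. Skil varied most within groups among the 10 genes, with a pooled SD of 0.306 on the log2 CPM scale, and 75% of 9454 genes had a lower one.

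Pmepa1, a TGF-β response gene whose product binds SMAD2 and SMAD3 and limits their activation, had the widest separation. Wildtype levels in batch 1 were 17.4 and 31.3 CPM, against 17.2, 20.9 and 17.6 CPM in the libraries labelled knockout. For Pmepa1 in batch 2, wildtype stood at 18.8 and 18.7 CPM against 30.3 and 31.1 CPM for knockout, from 841 to 1904 counts per library. The batch 1 groups overlapped, with wildtype replicate 2 far above the other 4 libraries. In batch 2 the groups were apart with the knockout higher, as for 19.6% of all genes. The batch 2 log2 fold change was 0.71 ± 0.14 (SE), a 1.64-fold higher level with a 95% confidence interval of 1.29 to 2.09, an unadjusted p of 0.00296 and an adjusted p of 0.618 in edgeR. Leaving out each batch 2 library in turn gave 0.67 to 0.76. DESeq2's Wald test gave 0.71 with an adjusted p of 0.00659, limma-voom 0.71 with an adjusted p of 0.485, and scaling to the CD4+ T cell markers 0.58 with an adjusted p of 0.482. In batch 1 the log2 fold change was -0.47 ± 0.37, and with a library left out it ran from -0.72, without wildtype replicate 1, to -0.23, without wildtype replicate 2. Over both batches it was 0.11 ± 0.24 in edgeR, and limma-voom gave 0.46 with an unadjusted p of 0.0395 and an adjusted p of 0.986. Its sign turned without wildtype replicate 3 or without wildtype replicate 4, at -0.073 and -0.038. The interaction was 1.12 ± 0.35, with an unadjusted p of 0.00896 and an adjusted p of 0.505 in edgeR, and 0.92 without wildtype replicate 2.

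The ratio of Pmepa1 to Smad7 counts in batch 2 was 0.147 and 0.155 in wildtype and 0.212 and 0.26 in knockout. It restates the Pmepa1 counts against a gene with a small difference there and is no separate evidence. In batch 1 the ratios of the groups overlapped, with means of 0.158 and 0.147. The batch 2 libraries also differed in other respects. Proliferation markers summed to 1350 to 2575 CPM for wildtype and 582 to 918 CPM for knockout, and neutrophil markers to 17.2 to 107 and 4.69 to 5.97 CPM. In batch 1 neutrophil markers summed higher, to 239 to 561 CPM for wildtype and 410 to 653 CPM for the labelled knockout. Erythroid markers in batch 2 reached 878 CPM in 1 wildtype library and were 33.2 CPM in the other, against 41.3 to 47.1 CPM in knockout. Stroma and endothelium markers summed to 159 to 166 CPM for wildtype and 192 to 196 CPM for knockout. Pdgfra was at 0 in all 4 libraries, and of the 3 genes tested 2 had positive and 1 a negative log2 fold change. The part of all these markers in the Pmepa1 values was not tested.

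**Figure D3:**
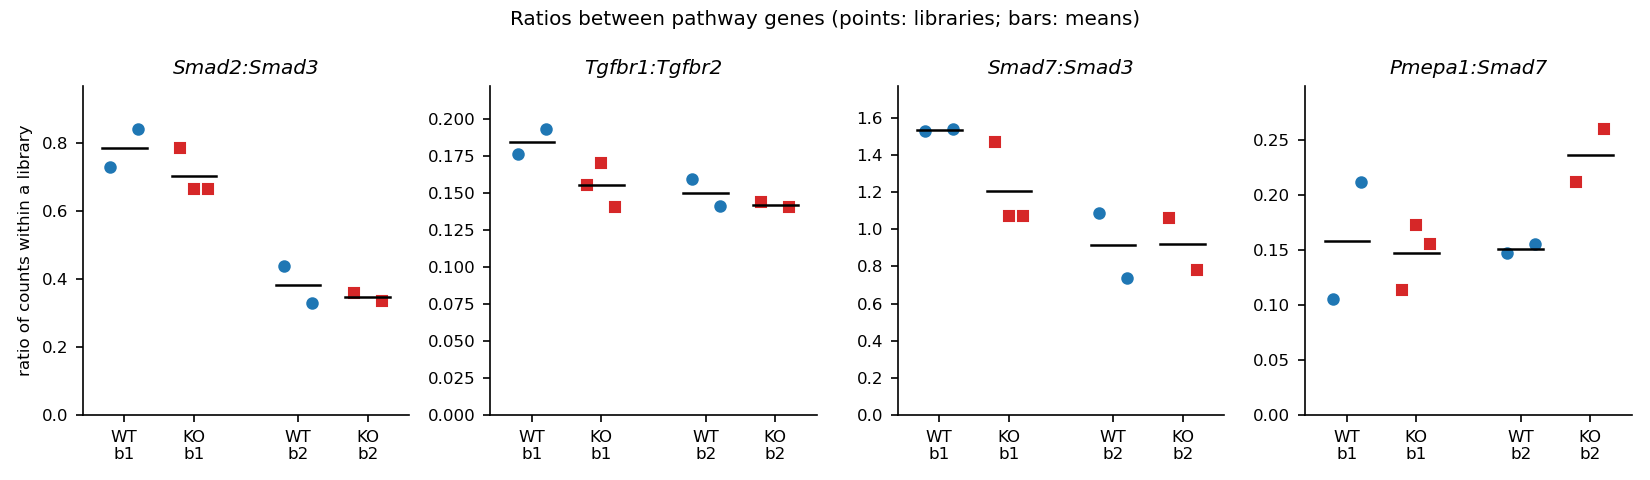
Ratios of estimated counts of gene pairs within each library (vertical axis, from 0). Blue circles are wildtype (WT) and red squares are labelled knockout (KO), b1 and b2 are the batches, and bars are group means. Pmepa1 to Smad7 lies at 0.147 and 0.155 in wildtype and 0.212 and 0.26 in knockout in batch 2, and Smad2 to Smad3 is lower in batch 2 than in batch 1 in both genotypes.

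As a group, the 10 genes had 1 positive and 9 negative log2 fold changes in batch 1, with a median of -0.28, and 9 positive and 1 negative in batch 2, with a median of 0.18. All genes tested had medians of 0.04 and -0.02. A negative value in batch 1 together with a positive one in batch 2 was found for 30.2% of 15288 genes. Over both batches 6 were positive and 4 negative, with a median of 0.01, and in the interaction 9 were positive, with a median of 0.40 against -0.19 for all genes. Without knockout replicate 3, the library with the sex pattern of batch 2, the batch 1 median was -0.17 with 2 positive.

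The 8 CD4+ T cell markers lay in the same directions as the pathway genes. They had 1 positive and 7 negative log2 fold changes in batch 1, with a median of -0.36, and 8 positive in batch 2, with a median of 0.12. Their summed level was 3635 and 3941 CPM in the wildtype libraries of batch 1 and 3245 to 3471 CPM in those labelled knockout. The wildtype libraries of batch 2 had 4091 and 4439 CPM, against 4684 and 4714 CPM for knockout. Plasma cell markers lay the other way in batch 1, at 32.9 and 107.7 CPM in wildtype and 108.7 to 160.4 CPM in the labelled knockout. The gap between 107.7 and 108.7 CPM was narrow. Sums of neutrophil, monocyte and macrophage, dendritic cell and B cell markers overlapped between the groups of batch 1. Those of CD8+ T cell and natural killer cell markers were lower in every labelled knockout library there. With libraries scaled to the CD4+ T cell markers, the 10 genes had a median of 0.04 in batch 1 and 0.05 in batch 2, each with 6 positive and 4 negative, and a median interaction of 0.06. The signs of Tgfbr2, Smad2, Smad3, Smad4 and Ski in batch 1 and of Tgfb1, Smad3 and Smad7 in batch 2 turned under that scaling. It moved the median of all genes to 0.35 in batch 1 and -0.15 in batch 2.

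**Figure D4:**
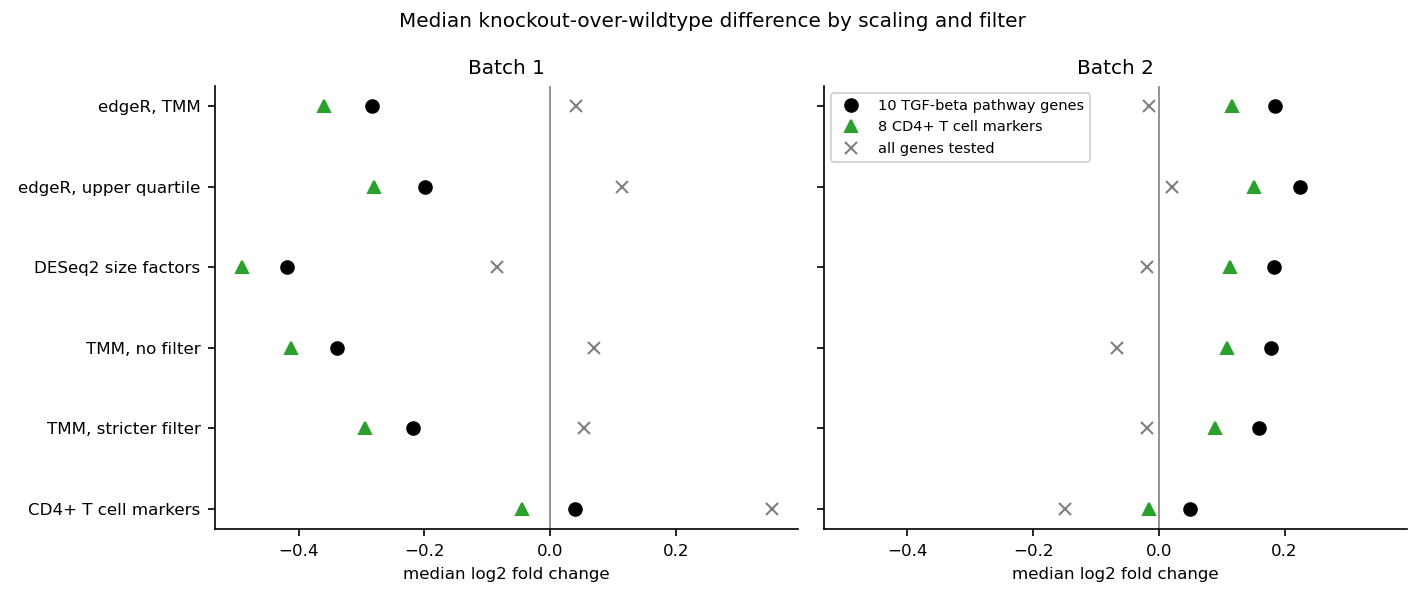
Median log2 fold change of knockout over wildtype (horizontal axis) under each scaling and low-count filter (vertical axis), in batch 1 (left) and batch 2 (right). Black circles are the 10 TGF-β pathway genes, green triangles the 8 CD4+ T cell markers and grey crosses all genes tested. Pathway genes and markers lie on the same side of 0 under the first 5 settings, and with libraries scaled to the markers the pathway medians are 0.04 and 0.05.

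Regulators of the receptors and SMADs and genes known to respond to TGF-β completed the description. Of 12 ubiquitin and phosphatase regulators, 0 passed the adjusted threshold in any fit. In batch 1, 11 of the 12 were negative with a median of -0.18, and in batch 2 10 were positive with a median of 0.15. Smurf2, a ubiquitin ligase for the receptors and SMADs, was -0.29 ± 0.37 and 0.33 ± 0.17. Usp15, a deubiquitinase that favours signalling, was -0.09 ± 0.38 and -0.58 ± 0.25, and its batch 2 levels were 110.4 and 171 CPM for wildtype and 89.9 and 99.6 CPM for knockout. Ldlrad4, a relative of Pmepa1 that also binds SMAD2 and SMAD3, was -0.08 ± 0.37 and 0.26 ± 0.13. Its batch 2 groups did not overlap and the knockout was higher, as for 19.6% of all genes.

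Of the 12 known response genes, 11 were tested in each batch and 0 passed the adjusted threshold. The median was 0.22 in batch 1 with 7 positive, and -0.72 in batch 2 with 4 positive. The batch 2 median was the value of a single gene, Ccn2, with an SE of 1.34, and Cdkn2b and Id1 were as poorly determined, with SEs of 1.94 and 1.74. These 3 genes are named here after their values were seen. Junb, an AP-1 subunit induced by many stimuli, had 368 and 628 CPM for wildtype and 219 and 229.7 CPM for knockout there, a log2 fold change of -1.16 ± 0.30 with an adjusted p of 0.625 in edgeR. Cdkn1a, which encodes the cell cycle inhibitor p21, had 4.96 and 5.28 CPM in wildtype and 6.78 to 12.5 CPM in the labelled knockout of batch 1, and 6.78 and 8.59 against 2.56 and 5.36 CPM in batch 2. Its interaction was -1.84 ± 0.65, with an unadjusted p of 0.0171 and an adjusted p of 0.563. Itgae, the integrin chain CD103 that TGF-β induces in T cells, overlapped between the groups of both batches, at 23.3 ± 5.98 and 23.5 ± 6.39 CPM (SD, n = 2 each) in batch 2.

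The genes most like Tgfbr2, Smad7 and Skil were sought by the root-mean-square difference in batch-centred log2 CPM over the 9 libraries, among 8725 genes with a mean of at least 10 CPM. For Tgfbr2 they were Tmem245 and Thada, with differences of 0.05 and 0.052, where its own spread about the batch means was 0.13. For Smad7 they were Acbd3 at 0.0517 and Kctd18 at 0.0611, with a spread of 0.167. For Skil they were Chmp7 at 0.0936 and Rnf2 at 0.0999, with a spread of 0.274. Pmepa1 was added after its values were seen, and the genes most like it were Ndufb4 at 0.0954 and Rpl13 at 0.14, with a spread of 0.334. None of these is one of the 10 pathway genes, and the values share library depth and scaling.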

How the data were processed

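RNA of 9 libraries of CD4+ T cells was sequenced as single-end reads. The authors deposited 1 table of estimated counts per gene, per the file headers. Salmon 1.2.0, R 4.0.3 and build GRCm39 appear, with no role stated, in the submitters' processing notes. The sources used here do not give the annotation, the strand setting or any filter.

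All nonzero values were fractional, so a scaling by transcript length is possible. Counts were rounded, and CPM is the count divided by the library total. Tests used edgeR 4.0.16 in R 4.3.3: TMM, the default filter (minimum count 10, minimum total 15), robust quasi-likelihood, Benjamini-Hochberg over all genes tested and a threshold of 0.05. Fits were made within each batch, over both with a batch term, and for the interaction. Standard errors came from the F statistic. DESeq2 1.42.0 and limma 3.58.1 were alternatives. Scripts were tested on simulated counts with planted changes. Of planted 2-fold changes, 1.49% were called in batch 1, 17.9% in batch 2, 4.48% over both batches and 0% in the interaction. In batch 2 there were also 32 calls on unchanged genes. A gene that is not called may therefore still differ. Likeness used log2 of CPM plus 0.5. Promoters came from RefSeq.

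No replicate pair agreed within sampling noise (chi-square per degree of freedom 4.27 to 140.9). Nothing says that replicates were separate animals, so p-values measure only the spread between these libraries. The members and lists were chosen with earlier results of these data known. Named pathway genes were set by name, and every list gene past the threshold would also have been named. Of these genes, 0 passed.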

Additional observations from a re-analysis of the deposited data

Results flagged for a closer look

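Pmepa1 stood out in 1 library. Wildtype replicate 2 had 31.3 CPM, while the other 3 wildtype libraries had 17.4 to 18.8 CPM. The gap to the nearest library was 0.903 of the range of the group, above the Dixon limit of 0.829 for 4 samples. The wildtype group spans both batches. Of 20 groups of libraries examined (10 genes in 2 genotypes), 1 was marked. About 1 mark would be expected by chance if each group were a single homogeneous sample. Each group mixes the batches, and the genes share libraries and scaling, so that expectation is only rough and decides nothing about this value.

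Tgfbr1 lay in opposite directions in the batches, lower in every labelled knockout library of batch 1 and higher in every knockout library of batch 2. Both together held for 2.3% of 15288 genes. The difference of the log2 fold changes, batch 2 minus batch 1, was 0.57, with an unadjusted p of 0.0486 and an adjusted p of 0.591 in edgeR. With each of the 9 libraries left out in turn it ran from 0.37, without wildtype replicate 1, to 0.87, without wildtype replicate 2.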

How the results depend on the processing

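The 10 genes stayed below the adjusted threshold under every alternative run except Pmepa1 in batch 2, which DESeq2 called. The median SE of a log2 fold change was 0.56 over the 24600 genes of batch 1 and 0.25 over the 15910 genes of batch 2. The batches differ in depth, in sensory receptor counts and in sex pattern, whose parts in this were not tested. Fold changes near 0 took either sign. The cause of the changes below was not tested.

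Counts of genes called were 31 in batch 1, 0 in batch 2, 1 over both batches and 1 in the interaction. In batch 1 they were 6 with upper-quartile scaling, 68 without a low-count filter, 3 with the stricter filter (CPM above 1) and 6 with scaling to CD4+ T cell markers. In batch 2 they were 329 with DESeq2 and 34 without a filter. Over both batches they were 16 with DESeq2, 2 without a filter, and 0 with the stricter filter, with limma-voom and without the batch term. In the interaction they were 165 with DESeq2, 2 without a filter, 2 with the stricter filter, 2 with the marker scaling and 0 with limma-voom. Leaving out each library in turn gave 33 to 118 calls in batch 1 (118 without wildtype replicate 2), 0 to 879 in batch 2 (879 without wildtype replicate 4), 0 to 3 over both batches (3 without wildtype replicate 4) and 1 to 238 in the interaction (238 without wildtype replicate 4). A fit left with 1 library in a group assumes that it varies like the others.

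The median over the 10 genes moved in batch 1 from -0.28 to -0.20 with upper-quartile scaling, -0.42 with DESeq2, -0.34 without a filter, -0.22 with the stricter filter and 0.040 with the marker scaling. It moved in batch 2 to 0.050 with the marker scaling. Over both batches it was -0.094 without a filter, 0.067 with the marker scaling and -0.059 without wildtype replicate 3 and knockout replicate 3 together. The interaction median was 0.48 with upper-quartile scaling, 0.52 without a filter and 0.061 with the marker scaling. With a library left out the medians ran from -0.44 to -0.11 in batch 1, 0.10 to 0.26 in batch 2, -0.14 to 0.055 over both batches and 0.21 to 0.72 in the interaction.

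Signs turned as follows. In batch 1, Smad3 was 0.00049 with upper-quartile scaling, and Tgfb1 was -0.11 with DESeq2 and -0.036 without a filter. With the marker scaling Tgfbr2 was 0.032, Smad2 0.075, Smad3 0.24, Smad4 0.047 and Ski 0.085. In batch 2 the marker scaling gave Tgfb1 -0.040, Smad3 -0.086 and Smad7 -0.055. Over both batches, values without a filter were -0.092 for Tgfbr2, -0.070 for Smad3, -0.096 for Smad4 and -0.072 for Ski. There Skil was 0.0050 with the marker scaling and 0.028 with limma-voom. Without the batch term Tgfbr2 was -0.0096 and Smad3 -0.037. Without wildtype replicate 3 and knockout replicate 3 together, Tgfb1 was -0.0058, Tgfbr2 -0.017, Smad3 -0.068, Smad4 -0.057, Skil 0.10 and Ski -0.060. In the interaction Tgfb1 was 0.032 with upper-quartile scaling and 0.093 without a filter, and Smad3 was -0.037 with the stricter filter. The marker scaling gave Smad2 -0.28, Smad3 -0.32 and Ski -0.010 there. The marker scaling and the joint omission were chosen after seeing the data.

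With a library left out, batch 1 values ran from -0.14 to 0.14 for Tgfb1, -0.57 to 0.014 for Tgfbr2 and -0.34 to 0.19 for Smad3, each lowest without wildtype replicate 2 and highest without wildtype replicate 1. Batch 2 values ran from -0.041 to 0.23 for Tgfb1, -0.15 to 0.26 for Smad3 and -0.043 to 0.20 for Smad7. Over both batches they ran from -0.035 to 0.16 for Tgfb1, -0.14 to 0.10 for Tgfbr2, -0.15 to 0.10 for Smad3, -0.12 to 0.063 for Smad4, -0.19 to 0.083 for Skil, -0.11 to 0.069 for Ski and -0.073 to 0.28 for Pmepa1. In the interaction they ran from -0.13 to 0.21 for Tgfb1, -0.081 to 0.29 for Smad2 and -0.22 to 0.36 for Smad3.

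Whether replicate numbers pair libraries across the genotypes could not be decided. Deviations from the means of genotype and batch gave correlations of 0.406, -0.432, -0.0808 and -0.112 between same-numbered libraries. The deviations of the 2 wildtype libraries of a batch are exact opposites, so these values are not independent. Replicate 3 was in batch 2 for wildtype and in batch 1 for knockout. With the replicate block, batch 1 had 58 calls, a median of -0.14 over the 10 genes and Smad3 at 0.067. Over both batches the block gave Smad3 -0.047, Smad4 -0.038, Skil 0.18 and Ski -0.034.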

Other observations

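Bmpr1a, a type I receptor of bone morphogenetic proteins, had the same sign in both batches. It was chosen after its values were seen. Its log2 fold change was 1.10 ± 0.52 (SE) in batch 1, 0.82 ± 0.28 in batch 2 and 1.02 ± 0.37 over both batches, with an adjusted p of 1 over both in edgeR. Tgfbi, an extracellular matrix protein induced by TGF-β and also made by macrophages, was chosen in the same way. It had 0.99 ± 0.49 in batch 1 and -1.18 ± 0.39 in batch 2. Its interaction was -2.30 ± 0.71, with an unadjusted p of 0.00814 and an adjusted p of 0.503. Monocyte and macrophage markers summed to 29.0 to 115 CPM in wildtype and 90.2 to 165 CPM in the labelled knockout of batch 1, and to 74.5 to 100.5 and 50.2 to 51.5 CPM in batch 2. Their part in the Tgfbi values was not tested.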
